A study of Mus musculus with 9 samples.

Results

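The genes described here are 10 components of simple epithelium, the 6 tight junction genes Cldn3, Cldn4, Cldn6, Cldn7, Ocln and Tjp1 and the 4 simple keratin genes Krt7, Krt8, Krt18 and Krt19. They were chosen by name, and every probe set that the annotation of the array pairs with one of these symbols alone was taken. This gave 16 probe sets for the 10 genes, out of 34945 probe sets for 18193 genes. Expression was measured on 9 Affymetrix mouse genome arrays hybridized with total RNA of the mouse embryonic stem cell line E14. The 4 arrays named ESC 2, 6, 8 and 10 carry RNA of undifferentiated embryonic stem cells (ESCs), and the 5 arrays named EB 1, 3, 5, 7 and 9 carry RNA of embryoid bodies, the aggregates in which such cells differentiate. All 9 samples carry the same E14 background, and the labels name no treatment. They give neither the age of the embryoid bodies nor the way they were formed. The ESC samples are described in the study's methods as biological replicates. Nothing says that of the embryoid bodies, so p-values measure the spread between these samples, which may be technical.

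Tight junctions seal the space between neighbouring epithelial cells. Claudins form the strands and set which ions pass, occludin lies within the strands, and the scaffold protein ZO-1, the product of Tjp1, ties them to the actin cytoskeleton. Simple keratins are the intermediate filaments of single-layered epithelia, and each filament is built from pairs of a type II keratin, such as Krt7 or Krt8, with a type I keratin, such as Krt18 or Krt19. Undifferentiated mouse ESCs grow as compact colonies joined by E-cadherin, and embryoid bodies contain epithelial layers next to cells that have lost epithelial contacts.

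Values are log2 of the deposited GCRMA intensities, a scale on which a step of 1 is a doubling. Array medians lay between 4.01 and 4.09, and a gene whose mean lay under log2 4 in both groups is called here near the floor of the scale. Array pairs within ESCs correlated at Pearson r of 0.995 to 0.998 over 45037 probe sets, pairs within embryoid bodies at 0.997 to 0.999, and pairs across the groups at 0.968 to 0.977. Within ESCs the closest pairs were arrays 2 and 6 (r = 0.9978) and arrays 8 and 10 (r = 0.9976), and the pairs across these lay between 0.9953 and 0.9958. The labels give no batch, and results that rest on either pair are given below without it. The identities of the groups were checked on marker genes. The pluripotency genes Zfp42, Nanog and Pou5f1 differed by -6.47, -3.34 and -3.17 on the log2 scale, embryoid bodies minus ESCs. The heart muscle genes Myl7 and Tnnt2 differed by 9.05 and 7.82. By the test given below, 9 of 10 ESC markers were lower in embryoid bodies, and Esrrb was not called. Of 13 differentiation markers 10 were higher and 1 was lower, Pax6 at -1.09. The other 2, Mesp1 and Nkx2-5, were not called. In such bulk RNA, fewer cells of a type and less RNA per cell cannot be told apart.

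Between ESCs and embryoid bodies 3 of the keratins and 2 of the claudins passed the test, in opposite directions. Krt7, Krt8 and Krt18 rose in embryoid bodies, by 2.10-, 1.43- and 1.46-fold, whereas Cldn4 and Cldn7 were 2.82- and 1.97-fold higher in ESCs. The other 5 genes, Cldn3, Cldn6, Ocln, Tjp1 and Krt19, did not pass the test. A gene was called at a Benjamini-Hochberg adjusted p under 0.05 in limma's two-sided test over all 45037 probe sets, and each gene was represented by its probe set of highest mean. Of the 10 genes 3 were called higher in embryoid bodies, where 15.7% of all 18193 genes were, and 2 were called lower, where 14.7% were. The 3 were all keratins, 3 of 4, and none of the 6 tight junction genes was called higher. The 2 called lower were both claudins, and no keratin was called lower. The median difference over the 10 genes was -0.18, beside -0.04 over all genes, but it was 0.06 without ESC arrays 2 and 6 and -0.43 without arrays 8 and 10. Krt8 was not called in the fit without ESC arrays 2 and 6 (difference 0.24, adjusted p = 0.114).

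**Figure D1:**
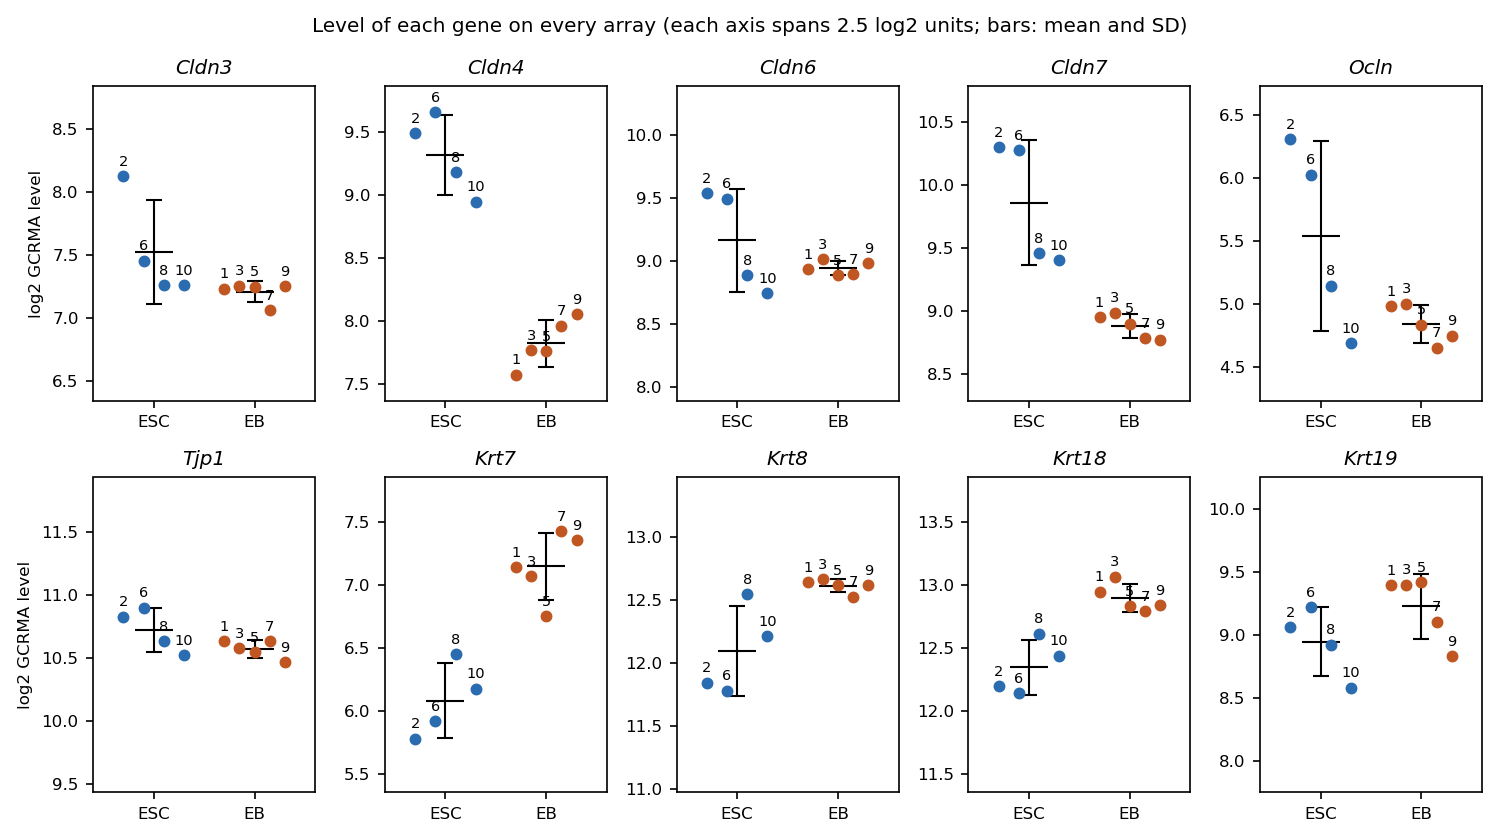
Log2 GCRMA level of the representative probe set of each of the 10 genes (y axis, 2.5 log2 units in every panel) on the 4 ESC arrays (blue) and the 5 embryoid body arrays (orange), with the array number beside each point and the mean and SD as bars. Cldn4 and Cldn7 are lower on every embryoid body array, and Krt7 and Krt18 are higher on every one.

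Cldn4, whose product is a claudin of tight epithelia and a receptor of the Clostridium perfringens enterotoxin, showed the widest separation of the groups. Its level was 9.49, 9.66, 9.18 and 8.95 on ESC arrays 2, 6, 8 and 10. In embryoid bodies it was 7.57, 7.77, 7.76, 7.96 and 8.05 on arrays 1, 3, 5, 7 and 9. All ESC arrays lay above all embryoid body arrays, with almost a whole log2 unit between the lowest ESC array and the highest embryoid body array. Mean levels were 9.32 ± 0.32 (SD, n = 4) and 7.82 ± 0.19 (SD, n = 5), a difference of -1.50 (SE 0.15, 95% interval -1.84 to -1.15, adjusted p = 9.1e-05).

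Cldn7, a claudin found along the lateral membrane of many epithelia, was also lower in embryoid bodies, with a split among the ESC arrays. Its level was 10.30 and 10.28 on ESC arrays 2 and 6 but 9.46 and 9.40 on arrays 8 and 10. In embryoid bodies it was 8.95, 8.99, 8.90, 8.78 and 8.77. The groups did not overlap, yet ESC arrays 8 and 10 lay closer to the embryoid bodies than to the other ESC arrays. Means were 9.86 ± 0.50 (SD, n = 4) and 8.88 ± 0.10 (SD, n = 5), a difference of -0.98 (SE 0.20, 95% interval -1.44 to -0.53, adjusted p = 0.0063). The size of this difference moved with the ESC arrays used. It was -0.55 (adjusted p = 0.0018) without ESC arrays 2 and 6 and -1.41 without arrays 8 and 10. With fewer embryoid body arrays the difference was about as large but not called, at -0.91 (adjusted p = 0.0527) without EB arrays 7 and 9 and -1.08 (adjusted p = 0.0926) without EB arrays 1, 3 and 5.

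The promoters of these 2 genes are shown because both fell and because the letters CACCTG and their reverse complement CAGGTG, the E-box read by repressors of the Snai and Zeb families, occur in a window of each. Each line holds the 250 bases before a RefSeq transcript start of mouse build GRCm38.p6, 5′ to 3′ along the gene's own strand, with the E-box in capitals. Cldn7 has windows at a pair of transcript starts. The one at the downstream start is given, and the one at the upstream start held no E-box.
Cldn4, chr5:134946935-134947184, minus strand: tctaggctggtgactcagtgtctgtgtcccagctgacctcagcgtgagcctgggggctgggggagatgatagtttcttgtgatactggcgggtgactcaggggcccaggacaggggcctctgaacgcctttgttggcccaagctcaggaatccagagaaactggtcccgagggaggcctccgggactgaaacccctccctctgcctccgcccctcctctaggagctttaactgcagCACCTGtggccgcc
Cldn7, chr11:69965171-69965420, plus strand: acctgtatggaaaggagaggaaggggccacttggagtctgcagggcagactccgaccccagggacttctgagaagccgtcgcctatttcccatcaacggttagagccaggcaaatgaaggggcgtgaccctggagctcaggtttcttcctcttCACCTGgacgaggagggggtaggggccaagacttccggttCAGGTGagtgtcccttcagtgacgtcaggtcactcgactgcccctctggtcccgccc
The match in Cldn4 began 14 bases before the start, and those in Cldn7 97 and 57 bases before it.

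Cldn6, a claudin of early embryonic epithelia, gave no call. Its level was 9.54, 9.50, 8.89 and 8.74 on the ESC arrays and 8.94, 9.02, 8.89, 8.90 and 8.99 on the embryoid body arrays. The embryoid body arrays spanned a narrow band, with ESC arrays 2 and 6 above it and array 10 below it. The difference of -0.22 (SE 0.16, adjusted p = 0.278) therefore averaged ESC arrays on both sides of the embryoid bodies. It was 0.13 (adjusted p = 0.182) without ESC arrays 2 and 6 and -0.57 (adjusted p = 0.0003) without arrays 8 and 10, so both its sign and its call depended on the pair of ESC arrays used.

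Cldn3, a close relative of Cldn4 and likewise an enterotoxin receptor, had 4 probe sets and none was called. Its representative probe set 1434651_a_at gave 8.13, 7.46, 7.26 and 7.26 in ESCs and 7.24, 7.26, 7.25, 7.06 and 7.26 in embryoid bodies. All ESC arrays lay above all embryoid body arrays, but arrays 8 and 10 by less than the second decimal shows. The difference was -0.31 (SE 0.17, 95% interval -0.70 to 0.07, adjusted p = 0.151), and -0.05 without ESC arrays 2 and 6. The other 3 probe sets differed by -0.26, -0.72 and -0.64, with adjusted p between 0.085 and 0.158. Of these, 1426332_a_at lay near the floor on all 9 arrays. The names of the remaining pair end in _x_at, the manufacturer's mark for probes that may bind other transcripts.

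Ocln encodes occludin, a membrane protein of the strands, and Tjp1 the scaffold ZO-1. The representative probe set of Ocln gave 6.31, 6.03, 5.15 and 4.69 in ESCs and 4.98, 5.0, 4.84, 4.65 and 4.75 in embryoid bodies. ESC arrays 2, 6 and 8 lay above the embryoid bodies and array 10 among them. The difference of -0.70 (SE 0.30) did not pass the test (adjusted p = 0.0968), and it passed without ESC array 10 (adjusted p = 0.021) and without arrays 8 and 10 (-1.32, adjusted p = 0.0003). Without arrays 2 and 6 it was -0.07 (adjusted p = 0.706). The other Ocln probe set, 1440220_at, differed by -0.17 (adjusted p = 0.140).

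For Tjp1 the ESC levels were 10.83, 10.90, 10.64 and 10.52, and the embryoid body levels 10.64, 10.58, 10.55, 10.64 and 10.47. ESC arrays 2 and 6 lay just above a band that held the other 7 arrays. The difference was -0.15 (SE 0.08, adjusted p = 0.151), -0.01 without ESC arrays 2 and 6 and -0.29 (adjusted p = 0.0106) without arrays 8 and 10.

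Among the keratins, Krt7 had the largest difference. It encodes a type II keratin of ducts and glands that is also a common marker of trophoblast. Its level was 5.78, 5.91, 6.45 and 6.17 on the ESC arrays and 7.14, 7.07, 6.75, 7.43 and 7.35 on the embryoid body arrays. The groups did not overlap, and EB array 5 and ESC array 8 came closest to each other. Means were 6.08 ± 0.30 (SD, n = 4) and 7.15 ± 0.27 (SD, n = 5), a difference of 1.07 (SE 0.17, 95% interval 0.68 to 1.45, adjusted p = 0.0015). It was 0.83 (adjusted p = 0.0172) without ESC arrays 2 and 6.

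Krt8 and Krt18 encode the type II and type I partners of the filament found in the earliest embryonic epithelia. The level of Krt18 was 12.19, 12.14, 12.61 and 12.44 in ESCs and 12.94, 13.06, 12.83, 12.79 and 12.84 in embryoid bodies. All embryoid body arrays lay above all ESC arrays, with means of 12.34 ± 0.22 (SD, n = 4) and 12.89 ± 0.11 (SD, n = 5). The difference was 0.55 (SE 0.10, 95% interval 0.32 to 0.78, adjusted p = 0.0034), and 0.37 (adjusted p = 0.0185) without ESC arrays 2 and 6. Without EB arrays 1, 3 and 5 it was 0.47 and not called (adjusted p = 0.103).

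For Krt8 the representative probe set, 1423691_x_at, gave 11.84, 11.78, 12.54 and 12.21 in ESCs and 12.64, 12.66, 12.62, 12.53 and 12.62 in embryoid bodies. The groups overlapped, since ESC array 8 lay slightly above EB array 7. The difference was 0.52 (SE 0.14, adjusted p = 0.0287). Both other Krt8 probe sets were called as well, 1420647_a_at with 0.51 (adjusted p = 0.0327) and 1435989_x_at with 0.45 (adjusted p = 0.0348). The representative and 1435989_x_at carry the _x_at mark for probes that may bind other transcripts, and 1420647_a_at does not. On all 3 probe sets ESC arrays 2 and 6 were the lowest of the 9 arrays. The representative probe set was not called when any one of ESC arrays 2 and 6 and EB arrays 1, 3 and 5 was left out, with adjusted p of 0.0589 to 0.0763.

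Krt19, a type I keratin that lacks the tail domain of its relatives, was not called. Its level was 9.07, 9.23, 8.93 and 8.58 in ESCs and 9.40, 9.40, 9.42, 9.11 and 8.83 in embryoid bodies. EB arrays 1, 3 and 5 lay above all ESC arrays, and EB arrays 7 and 9 lay among them. The difference was 0.28 (SE 0.16, adjusted p = 0.171). It was 0.16 without ESC array 10, 0.48 without ESC arrays 2 and 6, 0.09 without ESC arrays 8 and 10, 0.46 without EB arrays 7 and 9 and 0.02 without EB arrays 1, 3 and 5, and not called in any of these fits.

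The promoter windows of the 3 keratin genes that rose are shown for comparison with those of Cldn4 and Cldn7, in the same form and from the same build.
Krt7, chr15:101412153-101412402, plus strand: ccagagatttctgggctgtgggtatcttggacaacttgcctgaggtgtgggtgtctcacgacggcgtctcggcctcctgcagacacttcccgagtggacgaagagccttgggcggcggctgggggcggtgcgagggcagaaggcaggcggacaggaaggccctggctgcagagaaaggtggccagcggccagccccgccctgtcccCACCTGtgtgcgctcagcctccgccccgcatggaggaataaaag
Krt8, chr15:102004343-102004592, minus strand: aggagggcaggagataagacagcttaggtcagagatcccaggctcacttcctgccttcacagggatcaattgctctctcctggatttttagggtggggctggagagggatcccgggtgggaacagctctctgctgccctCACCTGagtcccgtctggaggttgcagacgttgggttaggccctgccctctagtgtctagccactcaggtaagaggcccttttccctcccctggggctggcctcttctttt
Krt18, chr15:102027966-102028215, plus strand: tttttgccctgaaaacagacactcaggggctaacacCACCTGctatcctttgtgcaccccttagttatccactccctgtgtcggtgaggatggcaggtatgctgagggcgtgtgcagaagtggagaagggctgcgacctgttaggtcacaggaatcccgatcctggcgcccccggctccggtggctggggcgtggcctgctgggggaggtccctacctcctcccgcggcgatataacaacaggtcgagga
Each held 1 E-box, which began 44, 111 and 214 bases before the start for Krt7, Krt8 and Krt18. RefSeq promoters were at hand for 9 of the 10 genes, in 11 windows. An E-box of these letters, on either strand, occurred in 7 of the 11 windows and 7 of the 9 genes, beside 17.2% of all 32851 mouse windows of the same length. The other genes with a match were Cldn6 and Ocln. Genes called higher, called lower and not called were thus among those with the E-box. The letters AACCNGTT, read by Grhl factors, were in none of the 11 windows and in 1.79% of all windows, and the TATA box TATAAA was in none of the 11 and in 12.4% of all. These motifs were chosen with results of these data known, and a match is a run of letters and no sign of binding. In this annotation Krt8 and Krt18 are neighbours on chromosome 15 with no protein-coding gene between them, and so are Cldn4 and Cldn3 on chromosome 5.

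**Figure D2:**
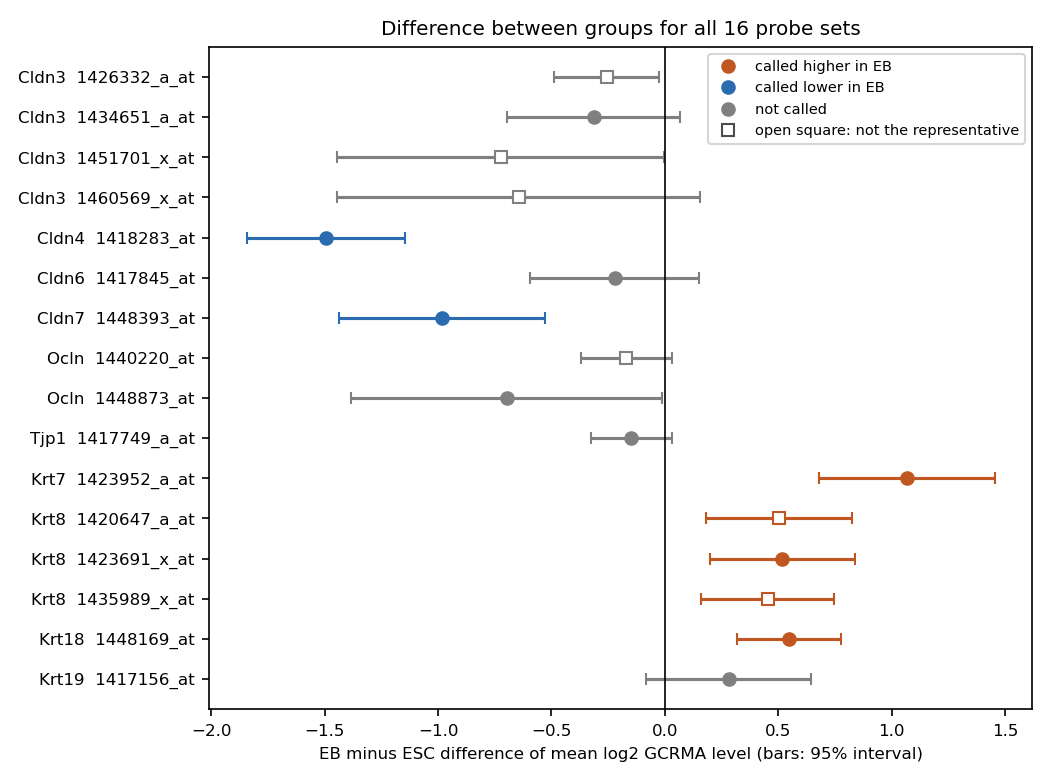
Embryoid body minus ESC difference of mean log2 GCRMA level (x axis) for all 16 probe sets, with 95% intervals from limma, coloured by call. Filled circles are the representative probe sets and open squares the others. The keratin probe sets lie to the right of 0 and those of the tight junction genes to the left, from 1.07 for Krt7 to -1.50 for Cldn4.

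Related genes were then compared within each array, which removes any shift common to an array. For 6 pairs the difference between the 2 log2 values on each array was compared between groups by an exact two-sided permutation test over all assignments of the arrays to groups, adjusted over the 6 pairs. The smallest p this design allows is 0.00794. Cldn4 fell by more than Cldn3, with a change in their within-array difference of 1.18 (exact permutation p = 0.00794, adjusted p = 0.0238). Cldn7 likewise changed more than Cldn6, by 0.76 (exact permutation p = 0.00794, adjusted p = 0.0238). Both pairs passed when ESC array 10 was left out but missed the threshold whichever other array was left out (adjusted p up to 0.0571). Fewer arrays allow fewer assignments, so the smallest possible p rises. A pair at that p then passes only if enough of the other pairs have a small p as well. These misses therefore say little about the pairs, whose changes stayed at 1.05 to 1.33 and 0.72 to 0.80 with an array left out. Cldn3 and Cldn4, neighbours on the chromosome, thus changed unequally, as did Cldn6 and Cldn7.

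The filament partners Krt8 and Krt18 differed in their change by only -0.03 (exact permutation p = 0.722), and a p of this size does not show that they moved alike. Their within-array difference had an SD of 0.14 over ESC arrays and 0.08 over embryoid body arrays. Krt7 rose by 0.52 more than Krt18 (exact permutation p = 0.0238, adjusted p = 0.0476). With any array left out, where the smallest possible p is larger too, this pair missed the threshold (adjusted p up to 0.107). Its change was then 0.42 to 0.60. The changes of Krt8 and Krt19 differed by 0.24 (exact permutation p = 0.397, adjusted p = 0.476) and those of Ocln and Tjp1 by -0.55 (exact permutation p = 0.0873, adjusted p = 0.131).

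All 6 tight junction genes shared an order among the ESC arrays. For each of them, and for Krt19, both ESC arrays 2 and 6 lay above both arrays 8 and 10. That is 7 of the 10 genes, where 21.7% of all genes had this order. It was not particular to them, since 12 of 19 adherens junction and desmosome genes had it. So did 12 of 27 other tight junction proteins and scaffolds, and in each of these lists 2 genes had the opposite order. Krt7, Krt8 and Krt18 had the opposite order, 3 of the 10 genes, where 13.6% of all genes did. With this, arrays 8 and 10 lay nearer to the embryoid bodies than arrays 2 and 6 did for each of the 10 genes except Krt19. Relative to the embryoid body mean, Cldn7 stood at 1.42 and 1.40 on ESC arrays 2 and 6 and at 0.58 and 0.52 on arrays 8 and 10, and Krt18 stood at -0.70 and -0.76 against -0.28 and -0.46. No test was made between these arrays, since the labels do not set them apart.

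**Figure D3:**
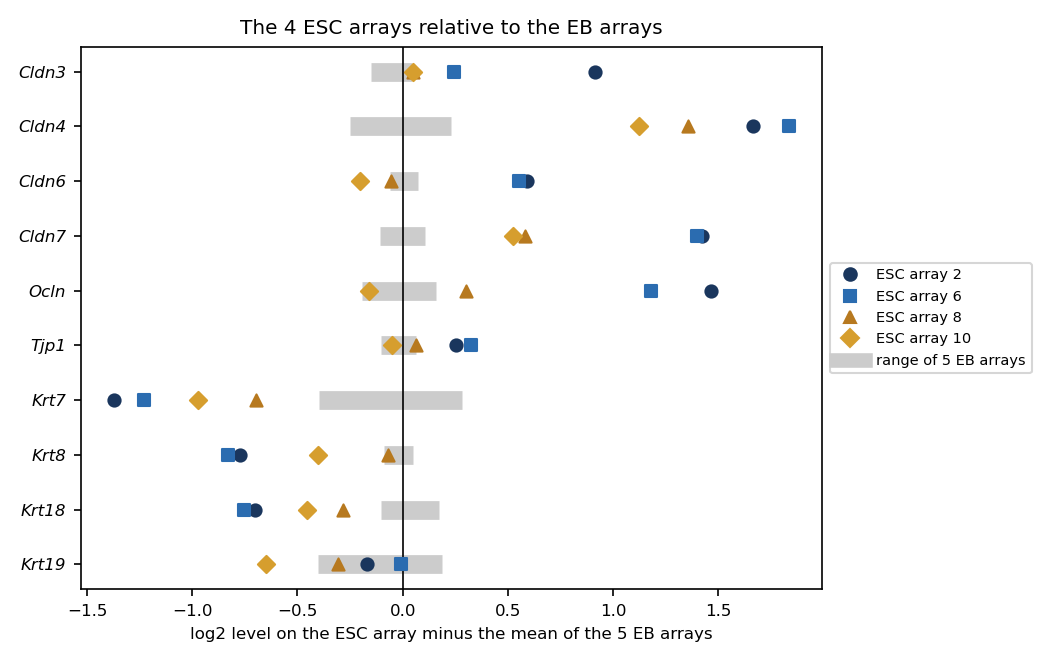
Log2 level on each ESC array minus the mean of the 5 embryoid body arrays (x axis) for the representative probe set of each gene, with the range of the embryoid body arrays as a grey bar. ESC arrays 2 and 6 (blue) lie farther from 0 than arrays 8 and 10 (orange) for every gene except Krt19.

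Collagen genes followed the same split. The summed linear intensity of 8 fibroblast and feeder cell genes was 323 and 273 on ESC arrays 2 and 6 and 801 and 777 on arrays 8 and 10, beside 9551 to 10734 on the embryoid body arrays. Of this, Col1a1 and Col3a1 made up 135 and 122 on arrays 2 and 6 and 600 and 564 on arrays 8 and 10. The other 6 genes of the list summed to 188 and 151 against 201 and 213, so the collagens carried most of the difference. Among 10 ESC markers, Pou5f1, Dppa5a and Utf1 were higher on both arrays 2 and 6 than on both arrays 8 and 10, Nanog, Zfp42 and Klf2 were lower on both, and 4 had neither order. Pluripotency genes thus split in both directions. The part of these differences in the levels of the 10 genes was not tested.

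Among the embryoid bodies, arrays 7 and 9 stood apart from arrays 1, 3 and 5 for some of the genes. Cldn4 and Krt7 were higher on both arrays 7 and 9 than on the other 3. That is 2 of the 10 genes, near the 17.2% of all genes with this order. Cldn7, Ocln and Krt19 were lower on both, 3 of the 10 genes, where 9.81% of all genes had this order. For Cldn4 and Cldn7 this placed arrays 7 and 9 on opposite sides, nearer to the ESCs for Cldn4 and farther from them for Cldn7. Both splits fall at the same place in the sample numbers, between 6 and 7, and the labels do not say what the numbers stand for. In a fit with numbers 1 to 6 and 7 to 10 as a block, Krt7, Krt8, Krt18, Cldn4 and Cldn7 were called in the same directions, and Ocln was called lower as well (-0.77, adjusted p = 0.028). Cldn4 differed by -1.87 among numbers 1 to 6 and -1.06 among numbers 7 to 10, Cldn7 by -1.34 and -0.65, and Cldn6 by -0.57 and 0.13. Among the keratins Krt7 differed by 1.14 and 1.08, Krt8 by 0.83 and 0.20 and Krt18 by 0.78 and 0.29. All but Cldn6 of these genes thus had the same sign in both sets of numbers, and Krt7 was nearly equal in size. Over all genes, every embryoid body array lay above every ESC array for 15.6%, as it did for Krt7 and Krt18, and below every ESC array for 19.4%, as it did for Cldn3, Cldn4 and Cldn7.

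Markers of cell types known for simple keratins changed in both directions. Of 8 measured trophoblast genes 1 was called higher, Eomes, and 1 lower, Tfap2c. The summed intensity of the 8 was 1270 to 1383 in ESCs and 1116 to 1495 in embryoid bodies. Tfap2c went from log2 9.83 to 8.90 and Eomes from 7.31 to 9.01, the highest means of the list. Their opposite changes offset each other in the sum, so its similar size does not show that the list was unchanged. Of 11 visceral endoderm genes 4 were called higher and 1 lower. Foxa2 (difference 5.65) and Rbp4 (1.90), a retinol carrier, rose most, and Apoe, the apolipoprotein, fell by 1.47. The summed intensity of these 11 genes was 1766 to 3119 in ESCs and 1454 to 2118 in embryoid bodies. Apoe carried the direction of this sum, since the other 10 genes summed to 271 to 360 in ESCs and 890 to 1173 in embryoid bodies. Among these 10, Dab2 and Foxa2 had the highest embryoid body means, at log2 8.72 and 8.39, and 6 were not called. Of the 11 genes 4 were near the floor in both groups. Of 8 surface ectoderm genes none was called, at 2 with an unadjusted p under 0.05 and 1 in the fit without trend. Their sum was 452 to 481 in ESCs and 423 to 465 in embryoid bodies. Of the 8 genes 3 were near the floor in both groups. Krt5 had the highest mean of the list, at log2 7.51 (SD 0.01) in ESCs and 7.47 (SD 0.05) in embryoid bodies. Tfap2a was nearly flat too, at 6.27 and 6.25. Whether such levels lie above the background of their probe sets was not tested, so the sum is no measure of surface ectoderm. The part of these cell types in the keratin levels was not tested.

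Beyond the 10 genes, few keratins or claudins differed. Of 15 other keratins, those of stratified and hair-bearing epithelia among them, none was called in limma's test, 5 had an unadjusted p under 0.05, and none was called in the fit without trend. In the fit blocked on the sample numbers 1 was called. Of these keratins 10 were near the floor in both groups, and the median difference was -0.04. Of 14 other claudins measured, 9 were near the floor and 2 were called, both higher. These were Cldn5, the claudin of the endothelium, with 5.81 in ESCs and 6.73 in embryoid bodies (difference 0.93), and Cldn12 (0.16).

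The remaining tight junction proteins and scaffolds changed in both directions, with 9 of 27 called higher, 5 called lower and a median of -0.07. Amot, an angiomotin that binds actin and regulates Hippo signalling at junctions, rose from 7.97 to 11.19, a difference of 3.22. Jam3, a junctional adhesion molecule, rose by 2.61, and the PDZ scaffolds Magi3 and Mpdz rose by 1.92 and 1.84. Cgn, the junction plaque protein cingulin, went from 8.99 to 7.06 and so fell by 1.93. Cgn and its relative Cgnl1, paracingulin, were called in opposite directions, Cgnl1 with a difference of 1.61.

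Adhesion genes of epithelial cells changed in both directions. Of 19 adherens junction and desmosome genes 7 were called lower and 4 higher, with a median of -0.28. Without ESC arrays 2 and 6 the median was -0.10, with 6 called lower and 3 higher. Epcam, an epithelial adhesion molecule known to bind claudin-7, fell by 1.75, and Cdh1, which encodes E-cadherin, fell by 1.23. The desmosomal cadherin Dsg2 fell by 0.92, and the plaque proteins Pkp4 and Jup fell by 0.82 and 0.73. The 4 called higher were Dsp (0.53), Cdh3 (0.39), Ctnnb1 (0.35) and Nectin3 (0.34). Of 7 keratin linkers and partners, Dst, a plakin, fell by 0.83, and none was called higher. Evpl, a plakin of cornified cells with a mean near the floor in both groups, fell by 0.24. Dsp, a desmosome gene that rose, is counted with the adhesion genes and not among these 7.

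Of 11 other intermediate filament genes 1 was called higher and 4 lower. Vim, which encodes vimentin of mesenchymal cells, rose by 1.61. The level of Vim was 11.73 and 11.74 on ESC arrays 2 and 6 but 13.14 and 12.89 on arrays 8 and 10. In embryoid bodies it was 13.84 to 14.18, so the size of the rise depended on the ESC arrays used. The neuronal filament genes Ina and Nefl fell by 3.13 and 2.59, and the lamins Lmnb2 and Lmnb1 fell by 0.53 and 0.43. Vim thus rose on the same arrays as Krt7, Krt8 and Krt18.

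Of 17 epithelial transcription factors and splicing regulators 8 were called lower, none higher and 9 were not called, at a median of -0.48 that was -0.16 without ESC arrays 2 and 6. Klf5 and Klf4, which also act in pluripotency, fell by 3.62 and 3.08. Esrp1, an epithelial splicing regulator, fell by 2.02, Elf3 by 1.52 and Grhl2, an activator of claudin and E-cadherin genes, by 1.37. Of 7 repressors of epithelial genes that act in epithelial-mesenchymal transition (EMT) 6 were called higher, at a median of 2.54. Zeb1 rose from 5.40 to 9.24, a difference of 3.84. Twist1, Snai2, Twist2 and Tcf4 rose by 3.18, 3.13, 2.54 and 1.48. Snai1 differed by 0.48 (adjusted p = 0.0786). Counts of these 2 lists were 8 lower and 6 higher also without ESC arrays 2 and 6.

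**Figure D4:**
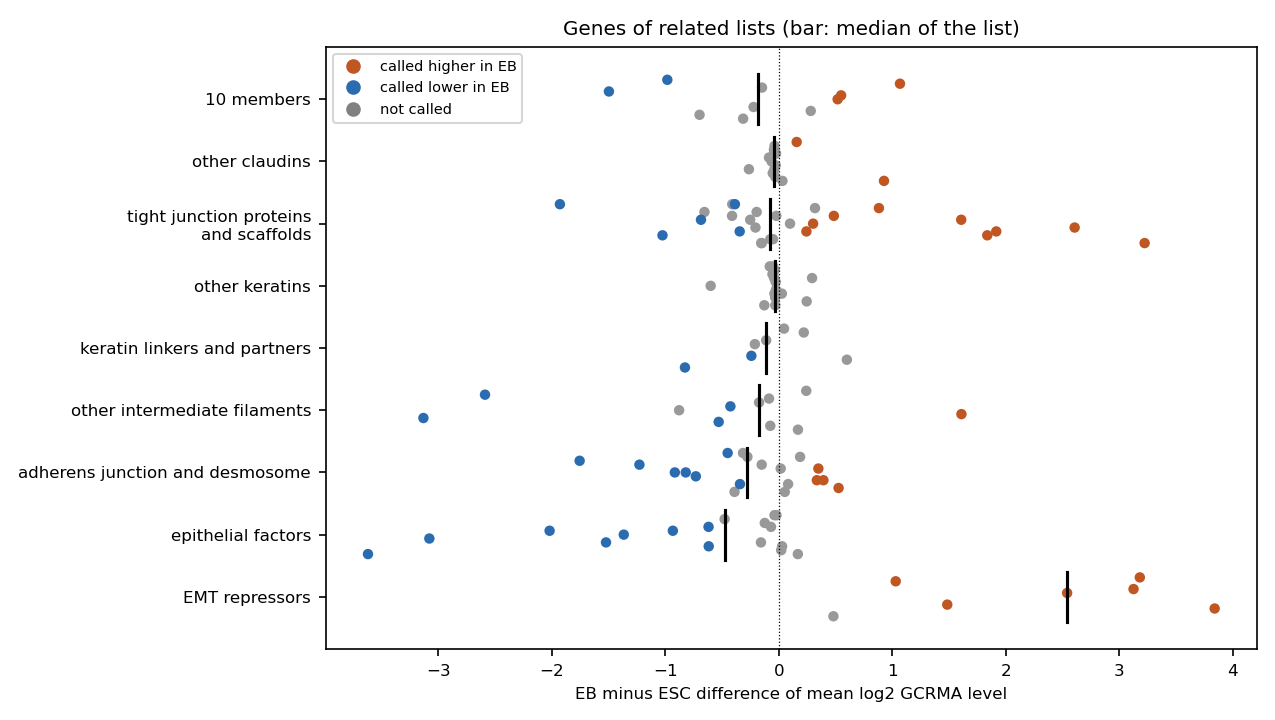
Embryoid body minus ESC difference of mean log2 GCRMA level (x axis) for each gene of the 10 and of 8 related lists, coloured by call, with the median of each list as a black bar. Medians run from -0.48 for the epithelial factors to 2.54 for the EMT repressors, and that of the 10 genes is -0.18.

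The genes whose levels followed those of 4 of the 10 most closely were sought among 9203 genes with a group mean of log2 6 or more. Pearson r was taken over the 9 arrays and is a description. It pools the groups, so for Krt18 and Cldn7 it partly follows the difference between them. Cldn6, Krt19 and the genes named for them were not called between the groups, so splits within the groups weigh more there. For Krt18 these were Lifr, the receptor of leukaemia inhibitory factor (r = 0.993), Cyth1 (0.990) and Appbp2 (0.988). For Cldn7 they were Nars (0.996) and Lars (0.993), which charge transfer RNAs, and Mtss1 (0.993). For Cldn6 they were Phf10 (0.983), Kbtbd2 (0.982) and Chac1 (0.977), a gene of the amino acid stress response. Chac1 had 9.01 and 8.58 on ESC arrays 2 and 6 and 6.32 and 5.79 on arrays 8 and 10, so its likeness to Cldn6 lay in the split of the ESC arrays. For Krt19 they were Ddit4 (0.944) and Fam162a (0.939), which hypoxia is known to induce, and Alg8 (0.932). Ddit4, like Krt19, was higher on ESC arrays 2 and 6 than on 8 and 10. Both were also higher on EB arrays 1, 3 and 5 than on 7 and 9.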

How the data were processed

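Total RNA of 4 ESC and 5 embryoid body samples of E14 cells was extracted with RNeasy, labelled with biotin and hybridized to 1 Affymetrix mouse genome array each. The authors deposited intensities on a linear scale, from 2.14 to 37448, computed with GCRMA. This method models background from the base composition of each probe, brings all arrays to a common distribution and combines the probes of a set into a single value. Whether all 9 arrays were processed together is not given in the sources used here. A common distribution removes any difference between arrays in the total amount of message, so all differences are relative.

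The log2 of each value was taken. The 64 control probe sets were left out, and limma version 3.58.1 in R 4.3.3 (lmFit and eBayes with trend and robust) was fitted to 45037 probe sets with no covariate, since the labels give no batch. On arrays the number of samples limits the precision. Gene names came from the platform annotation, which can be old. Of them 34945 had 1 gene, 932 several and 9160 none, and only the first kind was used. A gene was represented by its probe set of highest mean over the 9 arrays. No 2 arrays held identical values. The fit was tested on simulated data.

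Every probe set of the 10 genes is named, with the 5 largest called changes of each of 14 other lists except the cell type lists, of which only examples are named, and the 3 genes most like each of Krt18, Krt19, Cldn6 and Cldn7. The adherens junction and desmosome genes called higher are named as well. Of the listed genes 7 had no probe set of their own. The members and the lists were chosen with earlier results of these data known. Alternatives were array weights, a plain eBayes step, median centring, quantile normalization, a filter at log2 4, a pseudocount of 16, a difference of at least 1, averaging the probe sets of each gene, plain _at probe sets and each array left out. Leaving out pairs or trios of arrays and a block for sample numbers 1 to 6 and 7 to 10 were added after the data were seen. Promoter sequences are from RefSeq on GRCm38.p6, which had no entry used here for Krt19.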

Additional observations from a re-analysis of the deposited data

Results flagged for a closer look

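Of 32 groups of arrays checked, 3 held an array far from the others, and chance does so in about 1 of 20 groups. The representative probe set of Cldn3 (1434651_a_at) was lowest on EB array 7, at 7.06. The Cldn3 probe set 1451701_x_at was lowest on EB array 5, at 5.29. The Ocln probe set 1440220_at was highest on ESC array 6, at 4.90. None of the 3 belonged to a gene that was called.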

How the results depend on the processing

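The calls of Cldn4, Cldn7, Krt7 and Krt18 held with any single array left out. Members called higher were 3, and 1 without EB arrays 1, 3 and 5, 1 at a difference of at least 1 and 1 with plain _at probe sets, which cover 6 of the genes. They ranged from 2 to 3 with an array left out. Members called lower were 2, and 4 with array weights, 5 without ESC arrays 8 and 10, and 1 without EB arrays 7 and 9, without EB arrays 1, 3 and 5 and at a difference of at least 1. They ranged from 2 to 3 with an array left out. All genes called higher were 2863, and 1069 at a difference of at least 1 and 2565 to 2962 with an array left out. All genes called lower were 2666, and 5109 with array weights, 661 at a difference of at least 1 and 2345 to 4819 with an array left out, the highest without EB array 9. Krt8 against Krt18 turned to 0.031 without ESC array 8 (range -0.066 to 0.031 with an array left out) and 0.073 without ESC arrays 8 and 10. Krt8 against Krt19 turned to -0.24 without ESC arrays 2 and 6. Fewer arrays allow fewer assignments and raise the smallest possible p of the pair test, so a miss of the threshold there says little about a pair. The pairs called in the full design mostly missed it with fewer arrays, except both claudin pairs without ESC array 10. They were Krt7 against Krt18 (0.42 to 0.60 with an array left out, 0.46 without ESC arrays 2 and 6, 0.57 without 8 and 10), Cldn3 against Cldn4 (1.05 to 1.33, 1.19, 1.17) and Cldn6 against Cldn7 (0.72 to 0.80, 0.68, 0.84). Ocln against Tjp1 ranged from -0.77 to -0.33 and passed at -0.77 without ESC array 10. Without ESC arrays 2 and 6 the Cldn3 probe set 1460569_x_at turned to 0.11 (adjusted p = 0.539) and Cldn6 to 0.13. Apart from these array choices the causes were not tested. No paired analysis was made, since the labels name no pairs and the groups share no replicate number. A fit blocked on sample numbers 1 to 6 and 7 to 10 changed no call among the 10 genes except that Ocln was called lower.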
